A study of Mus musculus with 6 samples.

Results

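The genes described here are those of the mitochondrial genome, taken as every row of the deposited expression table whose gene name begins with mt-. There were 37 such rows among 52405: 13 messenger RNAs (mRNAs), 2 ribosomal RNAs (rRNAs) and 22 transfer RNAs (tRNAs). All 37 genes that the GENCODE M21 annotation (mouse build GRCm38) places on the mitochondrial chromosome, chrM, were in the table. The mice were adult C57BL/6 females whose ovaries had been removed at postnatal day 21, the kidneys were not injured, and the RNA is labelled as that of proximal tubule cells. In the KO group (3 libraries) Igf1r, the receptor tyrosine kinase that binds insulin-like growth factor 1, was knocked out in the proximal tubule, and the Ctr group (3 libraries) were the controls. Animals of both groups had been ovariectomized, so every comparison below is between ovariectomized females. The labels do not give the Cre driver, the age in weeks or the genotype of the controls beyond the name. The libraries of each group are labelled as biological replicates, and the labels do not say whether each came from its own animal. Cells were held on a magnetic column by an antibody to prominin-1, after dissociation of the kidney cortex.

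The mitochondrial genome is a small circular chromosome that is copied into long RNAs from both strands. These are cut into rRNAs, mRNAs and tRNAs, largely at the tRNAs that lie between the other genes, and the mRNAs encode core subunits of the respiratory chain and of the ATP synthase, while all other proteins needed to read them come from the nucleus. Proximal tubule cells reabsorb most of the filtered load, depend on oxidative metabolism and are rich in mitochondria.

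Values are FPKM, fragments per kilobase of transcript and per unit of sequencing depth. Igf1r itself was listed at 4.78, 7.67 and 5.08 FPKM in KO libraries 1 to 3, against 18.7, 15.3 and 22.7 FPKM in Ctr libraries 1 to 3. The groups did not overlap, and the log2 change was -1.55 (SE 0.19), with an adjusted p of 0.267 in limma. Igf1r was thus lower in the KO libraries but not absent, and the source of the remaining signal was not tested. The 9 proximal tubule markers summed to 3845 to 4043 FPKM in KO libraries and 4084 to 5219 FPKM in Ctr libraries. The label was checked against these, and Slc34a1, the sodium-phosphate cotransporter of the brush border, averaged 2246 ± 154 FPKM in KO and 2415 ± 416 FPKM in Ctr (SD, n = 3 each). KO 1 and Ctr 1 stood apart from the other 4 libraries on the first principal component, which held 49.95% of the variance. The 3 endothelial markers Pecam1, Emcn and Kdr summed to 86.1 FPKM in KO 1 and 105 FPKM in Ctr 1, against 7.86 to 12.8 FPKM in the other 4 libraries. In bulk RNA, fewer cells of a type and less RNA per cell cannot be told apart.

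Mitochondrially encoded RNA made up a large share of all expression. The 37 genes held 24.4%, 23.3% and 23.4% of the summed FPKM in KO libraries 1 to 3, against 22.2%, 24.1% and 19.98% in Ctr libraries 1 to 3. The lowest value was that of Ctr 3, and Ctr 2 lay between the KO libraries, so the groups overlapped. The mean share was 23.7% ± 0.613 in KO and 22.1% ± 2.05 in Ctr (SD, n = 3 each). That difference of 1.63 percentage points was within the spread between libraries (two-sided exact permutation test, p = 0.3; with 3 against 3 libraries the smallest p is 0.1). Without Ctr 3 it was 0.576 points, and without Ctr 2 it was 2.63. As shares of reads, which weight each gene by its length, the 37 genes held 15.7% ± 0.652 in KO and 14.1% ± 1.69 in Ctr (SD, n = 3 each).

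The mRNA class carried nearly all of that share and showed the same order of libraries. It averaged 22.1% ± 0.694 of the summed FPKM in KO and 20.8% ± 2.11 in Ctr (SD, n = 3 each; exact permutation p = 0.4, adjusted over the 3 shares tested 0.4), and the difference ran from 0.248 points without Ctr 3 to 2.35 without Ctr 2. The rRNA class was small but separated the groups. It held 1.48%, 1.62% and 1.63% in KO libraries, against 1.18%, 1.31% and 1.42% in Ctr libraries. All 3 KO values lay above all 3 Ctr values, with means of 1.58% ± 0.0810 in KO and 1.30% ± 0.119 in Ctr (SD, n = 3 each), a ratio of 1.21. The exact permutation p was 0.1, the smallest this design can give, and 0.3 adjusted over the 3 shares. The tRNA class held 0% in every library. The 9 proximal tubule markers also separated the groups by their sum, in the other direction (values above, 2 of 9 estimates positive). That separation depended on the marker Kap, at 558, 847 and 508 FPKM in KO, against 587, 1268 and 1318 FPKM in Ctr. The part of these markers in the rRNA result was not tested. The 10 markers of other kidney cells overlapped, at 2109.7 to 3454 FPKM summed in KO and 1883 to 2469 FPKM in Ctr, and none of the 10 was at 0 in any library. Umod of the thick ascending limb led them, at 1077 to 2300 FPKM. Slc12a3 of the distal convoluted tubule was at 364 to 545 FPKM. The shares are therefore not those of proximal tubule cells alone.

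**Figure D1:**
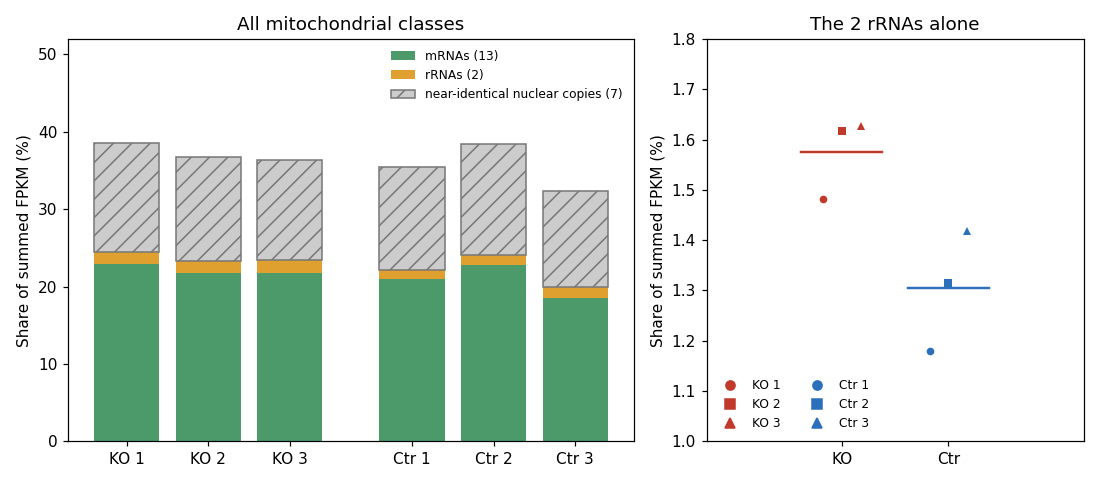
Left, share of summed FPKM (%) held by mitochondrial mRNAs, mitochondrial rRNAs and 7 near-identical nuclear copies of mitochondrial genes in each KO and Ctr library; right, the rRNA share alone, with points for libraries and lines for group means on an axis that does not start at 0. The stacked totals overlap between groups, while the rRNA share is 1.48% to 1.63% in KO and 1.18% to 1.42% in Ctr.

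The 2 rRNAs form the RNA core of the mitochondrial ribosome, mt-Rnr1 in its small subunit and mt-Rnr2 in its large subunit. They are neighbours, with mt-Rnr1 at chrM:70-1024 and mt-Rnr2 at chrM:1094-2675, both on the plus strand, and the tRNA for valine (mt-Tv, chrM:1025-1093) fills the gap exactly. The junction is shown because it holds both ways a member can appear in this table, very abundant or listed at 0; capitals mark mt-Tv, with the last 20 bases of mt-Rnr1 before it and the first 20 of mt-Rnr2 after it (GRCm38 chrM:1005-1113, plus strand, from the GENCODE M21 transcripts).
mt-Rnr1/mt-Tv/mt-Rnr2: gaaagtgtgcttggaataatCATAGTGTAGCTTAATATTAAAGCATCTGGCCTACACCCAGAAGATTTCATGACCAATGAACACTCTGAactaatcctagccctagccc

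For mt-Rnr2 the KO libraries had 3716, 4147 and 4176 FPKM, against 3149, 2873 and 2864 FPKM in the Ctr libraries. Every KO value exceeded every Ctr value. The means were 4013 ± 257 FPKM in KO and 2962 ± 162 FPKM in Ctr (SD, n = 3 each), 1.35-fold higher in KO. On the log2(FPKM + 1) scale, limma gave a change of 0.44 (SE 0.08, 95% interval 0.25 to 0.63), with an unadjusted p of 0.000945 and a Benjamini-Hochberg adjusted p of 0.999617 over all 12770 genes tested. The change did not pass the threshold of 0.05.

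For mt-Rnr1 the KO libraries were almost equal, at 7982, 8006 and 7979 FPKM, against 5593, 7098 and 7360 FPKM in the Ctr libraries. The groups did not overlap here either, and the separation was narrowest against Ctr 3. Means were 7989 ± 15.1 FPKM in KO and 6684 ± 953 FPKM in Ctr (SD, n = 3 each), a log2 change of 0.27 (SE 0.11, 95% interval 0.00 to 0.53; unadjusted p = 0.0495, limma adjusted p = 0.999617). Leaving out Ctr 1, the lowest library, brought that estimate to 0.14, and leaving out KO 1 and Ctr 1 together brought it to 0.15, while mt-Rnr2 then stood at 0.54. Against the wider table, all KO values above all Ctr values were found for both rRNAs and no mRNA, 2 of 15 tested members, and for 497 of the 12770 genes (3.89%). An unadjusted p below 0.05 with a higher KO value held for the same 2 members, and for 232 genes (1.82%). For mt-Rnr1 this was not stable. Its unadjusted limma p ran from 0.0234 without Ctr 3 to 0.307 without the filter on low values, and was 0.0858 with an equal sum over all rows. That of mt-Rnr2 was at most 0.0259. The 2 rRNAs are neighbours and were not treated as independent. The enrichment step before library preparation (poly(A) selection or rRNA depletion) is not given in the sources used here, and rRNA levels depend on it.

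Within a library, the rRNAs did not shift beyond error against the mRNAs or against each other. The ratio of summed rRNA to summed mRNA FPKM was 0.0646, 0.0745 and 0.0748 in KO libraries, against 0.0562, 0.0578 and 0.0764 in Ctr libraries. Ctr 3 had the highest ratio of all, so the groups overlapped (means 0.0713 ± 0.00578 in KO and 0.0635 ± 0.0113 in Ctr, SD, n = 3 each; exact permutation p = 0.4, and 0.667 adjusted over 5 ratios). The mt-Rnr2 to mt-Rnr1 ratio was 0.466, 0.518 and 0.523 in KO libraries, against 0.563, 0.405 and 0.389 in Ctr libraries. Ctr 1 alone lay above the KO libraries (exact permutation p = 0.4), and without it the difference of means was 0.105 in place of 0.04995. It was 0.0183 without Ctr 3 and 0.0262 without Ctr 2.

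All 13 mRNAs were among the most abundant rows of the table, and for none was a difference between the groups found beyond error. In the rows as deposited, mean FPKM over the 6 libraries ran from 2782 for mt-Nd4l to 26222 for mt-Co2. That was a 9.42-fold range, although all but mt-Nd6 are encoded on the plus strand. The 13 mRNAs ranked 3 to 26 of all rows by mean FPKM. Adding the nuclear copies described below changed the order of the mRNAs. The limma test called 0 of the 15 members, with an adjusted p of 0.999617 for each; 2 had an unadjusted p below 0.05, the rRNAs above. The same test called 3 of 12770 genes (0.0235%).

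All 13 mRNAs had a positive log2 estimate, from 0.03 for mt-Nd3 to 0.19 for mt-Co1, except that mt-Nd3 was at -0.01 when the libraries were scaled to an equal sum over all rows. The median was 0.12, beside -0.02 over all genes tested, of which 43.6% had a positive estimate. Every 95% interval for an mRNA included 0. The direction rested in large part on a single control library: all 13 mRNAs were lowest in Ctr 3, and without it 8 of 13 estimates were positive, with a median of 0.01. Leaving out Ctr 2, the highest control, raised the median to 0.21. Between libraries with the same number, KO exceeded Ctr for 11 of 13 mRNAs in the libraries numbered 1. The count was 1 of 13 in those numbered 2 and 13 of 13 in those numbered 3. Both rRNAs were higher in KO under any matching of libraries, because their groups did not overlap.

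**Figure D2:**
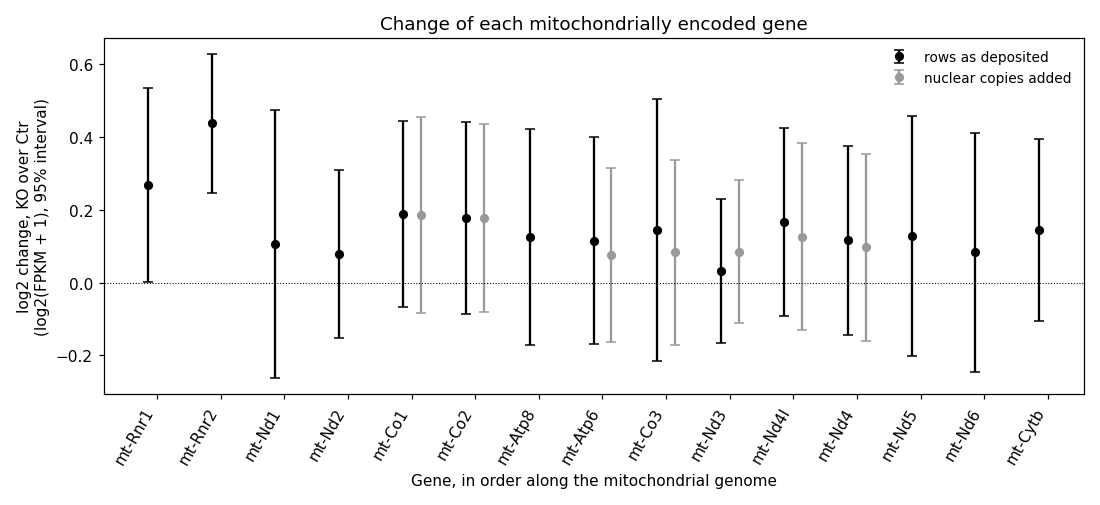
Log2 change, KO over Ctr, of log2(FPKM + 1) for the 15 mitochondrially encoded genes above 0, in order along the mitochondrial genome, with 95% intervals from limma; black, rows as deposited, and grey, after adding the near-identical nuclear copy to its gene. The interval of mt-Rnr2 (0.25 to 0.63) lies farthest from 0, and all 13 mRNA intervals include 0.

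The cytochrome c oxidase (complex IV) mRNAs were the most abundant group. For mt-Co1 (chrM:5328-6872), which encodes the catalytic subunit, the KO libraries had 25932, 25533 and 26008 FPKM, against 22501, 25891 and 19955 FPKM in the Ctr libraries. Only Ctr 2 reached the KO range. For mt-Co2 (chrM:7013-7696), whose protein takes up electrons from cytochrome c, values were 29698, 26979 and 26666 FPKM in KO, against 24487, 27777 and 21722 FPKM in Ctr. Again Ctr 2 lay inside the KO range. For mt-Co3 (chrM:8607-9390), encoding the third core subunit, they were 15643, 13503 and 11608 FPKM in KO, against 13335, 13429 and 10131 FPKM in Ctr. The log2 changes of these mRNAs were 0.19 (SE 0.11), 0.18 (SE 0.11) and 0.14 (SE 0.15) in that order.

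Complex I, the NADH dehydrogenase, has 7 of the 13 mRNAs, and their levels differed widely, all below mt-Cytb, mt-Atp8, mt-Co1 and mt-Co2 by mean. The most abundant, mt-Nd1 (chrM:2751-3707), encodes a membrane subunit next to the ubiquinone site and had 17984, 13417 and 14604 FPKM in KO, against 14859, 16210 and 11723 FPKM in Ctr. mt-Nd2 (chrM:3914-4951), mt-Nd4 (chrM:10167-11544) and mt-Nd5 (chrM:11742-13565) encode the antiporter-like subunits of the membrane arm. Their means were 10938 ± 704, 9926 ± 293 and 6327 ± 640 FPKM in KO and 10376 ± 1001, 9218 ± 1315 and 5830 ± 960 FPKM in Ctr (SD, n = 3 each). As deposited, the lowest of the complex were mt-Nd3 (chrM:9459-9806) and mt-Nd4l (chrM:9877-10173). mt-Nd3 had 2653, 2836 and 3081 FPKM in KO and 2759, 2963 and 2653 FPKM in Ctr. mt-Nd4l had 2874, 2904 and 3021 FPKM in KO and 2733, 2938 and 2225 FPKM in Ctr. The groups overlapped for all of them, and the log2 changes of the complex lay between 0.03 (mt-Nd3) and 0.17 (mt-Nd4l). With its nuclear copy described below added, mt-Nd3 averaged 12731 FPKM in KO and 12014 FPKM in Ctr, above mt-Nd2.

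Complex III and the ATP synthase (complex V) supply the other mRNAs. mt-Cytb (chrM:14145-15288), the cytochrome b of complex III, had 17946, 17561 and 16946 FPKM in KO, against 15570, 18070 and 14077 FPKM in Ctr. Its highest value was that of Ctr 2. mt-Atp8 (chrM:7766-7969) encodes a short membrane subunit of the ATP synthase and had 23742, 19060 and 18914 FPKM in KO, against 18334, 21079 and 17085 FPKM in Ctr. mt-Atp6 (chrM:7927-8607), whose protein forms part of the proton channel, had 8163, 7743 and 8686 FPKM in KO, against 8442, 8057 and 6351 FPKM in Ctr. Their log2 changes were 0.14 (SE 0.11), 0.12 (SE 0.13) and 0.12 (SE 0.12).

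**Figure D3:**
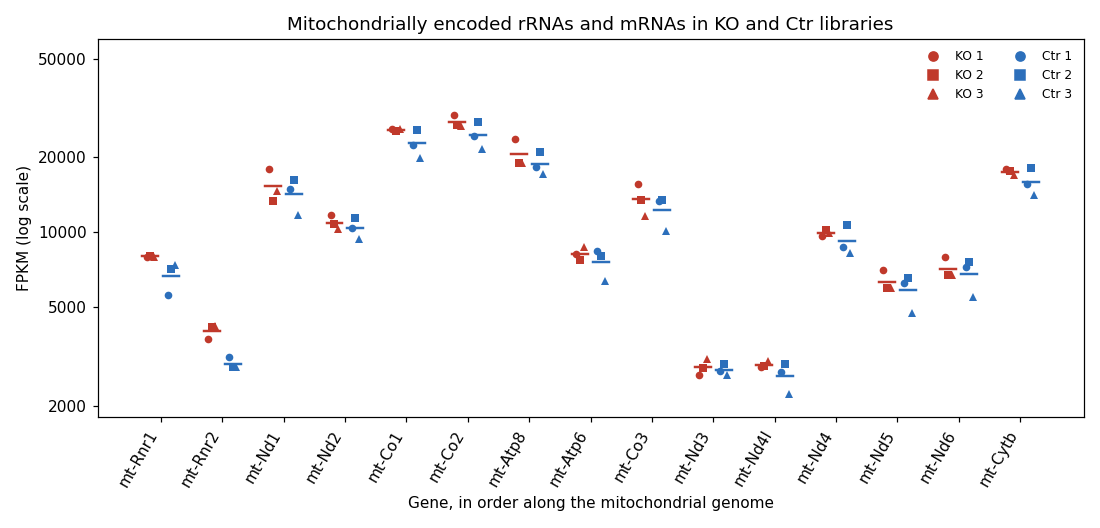
FPKM (log axis) of the 2 rRNAs and 13 mRNAs in order along the mitochondrial genome, with points for the KO (left) and Ctr (right) libraries and lines for group means. The KO and Ctr points separate for the 2 rRNAs and overlap for all 13 mRNAs, and Ctr 3 is the lowest point of each mRNA.

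The mRNA for mt-Atp8 shares 43 bases with that for mt-Atp6, and mt-Nd4l shares 7 with mt-Nd4; each pair lies on the plus strand and is known as a single bicistronic mRNA. The junctions are shown because the rows of a pair measure pieces of the same RNA; capitals mark the shared bases, with 20 bases to each side (GRCm38, plus strand, chrM:7907-7989 and chrM:10147-10193).
mt-Atp8/mt-Atp6 junction: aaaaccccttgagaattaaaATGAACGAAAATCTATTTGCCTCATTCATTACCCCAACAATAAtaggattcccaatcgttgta
mt-Nd4l/mt-Nd4 junction: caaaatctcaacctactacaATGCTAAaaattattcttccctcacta
In FPKM, mt-Atp8 nevertheless stood at 2.91, 2.46 and 2.18 times mt-Atp6 in KO libraries and 2.17, 2.62 and 2.69 times in Ctr libraries. mt-Nd4l stood at 0.298, 0.284 and 0.305 times mt-Nd4 in KO and 0.313, 0.274 and 0.271 times in Ctr. The groups overlapped for both ratios (exact permutation p = 0.9 for mt-Atp8 over mt-Atp6 and p = 0.6 for mt-Nd4l over mt-Nd4).

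Several of these genes have copies in the nuclear genome, and the copies have rows of their own in the table. A search of pseudogene transcripts against chrM found 27 that aligned over at least 80% of their length at 80% identity or more. Of these, 7 were near-identical (at least 99% identity over at least 95% of their length), and all 7 lie side by side on the minus strand of chromosome 1, at chr1:24611535-24616197 (GRCm38). All but Gm28661, the copy of mt-Co2, carried very high values. The copy of mt-Atp6, Gm10925 (chr1:24613974-24614651, 100% identical over 678 bases), was the highest row of the whole table. It had 54219, 50717 and 47338 FPKM in KO, against 48305, 53239 and 43918 FPKM in Ctr, and averaged 6.28 times mt-Atp6 itself.

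The other near-identical copies differed widely in how they compared with their genes. Gm28437 stood at 2.28 times mt-Co3, Gm28438 at 3.42 times mt-Nd3 and Gm10222 at 1.21 times mt-Nd4l. Gm28439, which covers 876 of the 1378 bases of mt-Nd4, stood at 0.279 times that gene, and Gm29216, with 492 bases against 1545, at 0.256 times mt-Co1. Gm28661, the copy of mt-Co2, was listed at 0 FPKM in all 3 KO libraries, and at 9.04, 8.94 and 0 FPKM in Ctr, while mt-Co2 averaged 26222 FPKM. Gm28661 is 100% identical to mt-Co2 over 681 bases. The first 90 bases of mt-Co2, of that copy and of a less similar one are shown because both copies stood far below mt-Co2. Capitals mark bases that differ from mt-Co2 (GRCm38, chrM:7013-7102 on the plus strand, chr1:24615476-24615565 and chr2:22587873-22587962 on the minus strand).
mt-Co2: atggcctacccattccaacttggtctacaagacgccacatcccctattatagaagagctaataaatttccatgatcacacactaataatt
Gm28661: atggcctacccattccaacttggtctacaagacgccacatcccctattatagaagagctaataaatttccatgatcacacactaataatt
Gm13341: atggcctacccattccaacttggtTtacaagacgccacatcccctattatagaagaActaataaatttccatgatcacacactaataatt
Gm13341 is 95.9% identical to mt-Co2 over its whole length and averaged 6.61 FPKM, the highest mean of the 20 copies below 99% identity. Of those 20, 11 were listed at 0 in every library and 16 had a mean below 1 FPKM; Gm13340, a copy of mt-Co1, averaged 3.40 FPKM, Gm11407, of mt-Nd5, 2.09 FPKM and Gm50174, of mt-Atp6, 1.25 FPKM. A read from a stretch where gene and copy are identical cannot be assigned to either by its sequence, so the level of each of these 7 mitochondrial rows is uncertain by itself.

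The copies together held 14.2%, 13.5% and 12.99% of the summed FPKM in KO, against 13.3%, 14.3% and 12.3% in Ctr. With them, the mitochondrial sequence reached 38.6%, 36.8% and 36.4% in KO and 35.5%, 38.4% and 32.3% in Ctr. The groups overlapped for both. As shares of reads, genes and copies together held 21.7% ± 1.08 in KO and 19.8% ± 2.24 in Ctr (SD, n = 3 each). The 6 copies other than Gm28661 had log2 changes from -0.02 (Gm28439) to 0.14 (Gm29216), and none passed the test. Adding each copy to its gene, weighted by length, brought mt-Atp6 to 58704 ± 3191 FPKM in KO and 55864 ± 5518 FPKM in Ctr (SD, n = 3 each), and turned the mt-Atp8 to mt-Atp6 ratio to 0.350 ± 0.0289 in KO and 0.337 ± 0.0111 in Ctr. It moved mt-Nd4l over mt-Nd4 to 0.549 ± 0.0192 in KO and 0.538 ± 0.00516 in Ctr. All 13 mRNA estimates were positive after the addition, with a median log2 change of 0.11, and 0 of 15 members passed the test.

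**Figure D4:**
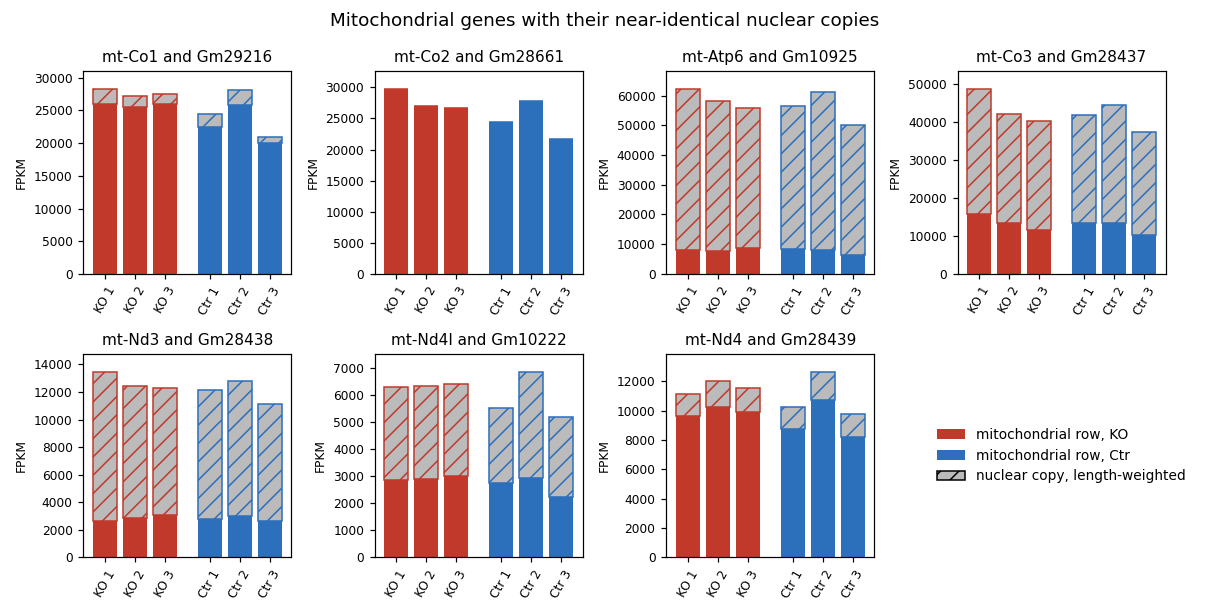
FPKM of the 7 mitochondrial genes that have a near-identical nuclear copy, in KO (red) and Ctr (blue) libraries, with the length-weighted copy stacked on top (hatched). The copy outweighs the gene for mt-Atp6, mt-Co3, mt-Nd3 and mt-Nd4l and is too small to see for mt-Co2.

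Shares within the 13 mRNAs do not depend on the library total, and there complex IV separated the groups by a small amount. The 3 complex IV mRNAs made up 39.4%, 40.5% and 39.6% of the summed mRNA FPKM in KO libraries, against 38.8%, 38.9% and 38.7% in Ctr libraries. Of the 3, only mt-Co2 separated the groups by itself. mt-Co1 took 14.3%, 15.6% and 16.0% in KO, against 14.5%, 15.0% and 14.9% in Ctr. mt-Co3 took 8.64%, 8.27% and 7.14% in KO, against 8.57%, 7.78% and 7.58% in Ctr. With the nuclear copies added the separation was tighter, at 37.2% in each KO library and 36.6%, 36.5% and 36.6% in the Ctr libraries. The difference of means was 1.01 percentage points as deposited and 0.633 with the copies added (exact permutation p = 0.1 for each, the smallest possible; as deposited 0.2 adjusted over 4 complexes). Complex I lay the other way, at 33.1%, 32.4% and 33.0% in KO against 34.0%, 33.8% and 33.2% in Ctr (exact permutation p = 0.1, adjusted 0.2), but with the copies added its groups overlapped, at 26.1% to 26.7% in KO and 26.2% to 26.9% in Ctr (exact permutation p = 0.4). Complexes III and V overlapped as deposited (exact permutation p = 1 and p = 0.7). The shares of the 4 complexes add up to the whole in each library. A higher complex IV share therefore lowers the rest, and the complex I difference is not an independent result. The grouping by complex was chosen after values had been seen.

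Of single mRNAs, mt-Co2 took 16.4%, 16.5% and 16.4% in KO, against 15.7%, 16.1% and 16.2% in Ctr, and mt-Nd2 took 6.47%, 6.58% and 6.37% in KO, against 6.68%, 6.59% and 7.005% in Ctr. Neither pair of groups overlapped, although mt-Nd2 in KO 2 and Ctr 2 almost met. For each the exact permutation p was 0.1 and, adjusted over the 13 mRNAs, 0.65. With the copies added, the mt-Nd2 difference went to -0.0984 percentage points, against -0.280 as deposited, with an exact permutation p of 0.2, and without Ctr 3 it was -0.155. The other 11 overlapped. Shares of the 13 mRNAs are tied to each other in the same way as those of the complexes.

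mt-Nd6 encodes a complex I subunit and is the only mRNA on the minus strand (chrM:13552-14070); its end overlaps that of mt-Nd5 by 14 bases on opposite strands. Its values were 7938, 6710 and 6743 FPKM in KO, against 7239, 7593 and 5499 FPKM in Ctr, with a log2 change of 0.08 (SE 0.14). Set against mt-Nd5 in the same library, the spread nearly vanished. The mt-Nd6 to mt-Nd5 ratio was 1.12, 1.13 and 1.13 in KO libraries, against 1.16, 1.16 and 1.16 in Ctr libraries, with no overlap. The means were 1.127 ± 0.00522 in KO and 1.162 ± 0.00233 in Ctr (SD, n = 3 each), lower in KO by 0.0351 (exact permutation p = 0.1, the smallest possible; 0.5 adjusted over 5 ratios). Leaving out any 1 library kept the difference between -0.0381 and -0.0332. The ratio was chosen after values had been seen, and neither gene has a near-identical nuclear copy. Whether reads were counted by strand is not given in the sources used here, so reads of mt-Nd6 and of RNA from the opposite strand of the same interval cannot be told apart.

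**Figure D5:**
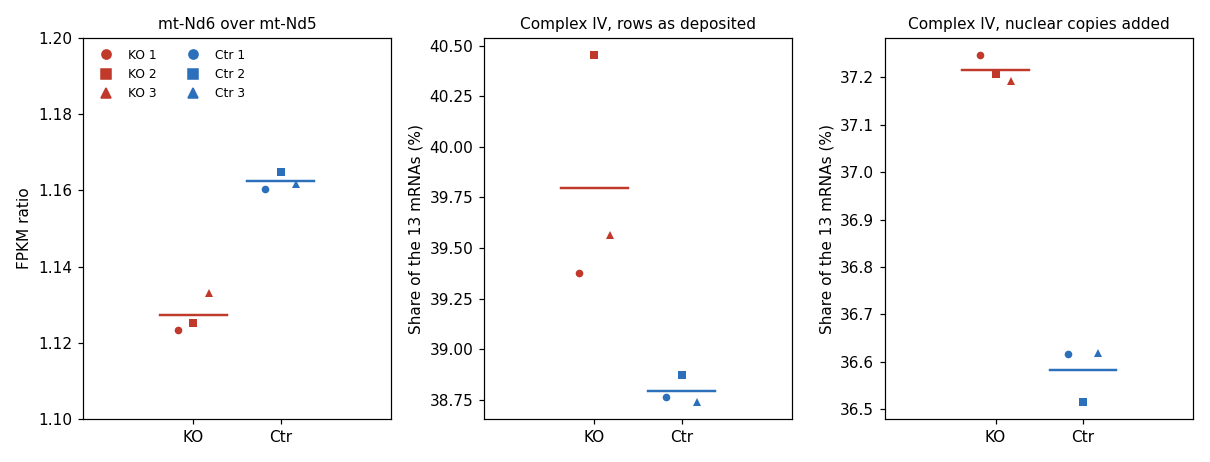
Left, mt-Nd6 over mt-Nd5 FPKM ratio per library; middle and right, share (%) of the complex IV mRNAs in the summed FPKM of the 13 mRNAs, as deposited and with nuclear copies added; points are libraries, lines group means, and axes do not start at 0. KO lies below Ctr for the ratio (1.127 and 1.162 on average) and above it for both complex IV shares.

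The tRNAs carry amino acids to the mitochondrial ribosome, and all 22 were listed at 0 FPKM in every library. They are 59 to 75 bases long, 14 on the plus and 8 on the minus strand. Outside the mitochondria, 0 of 705 rows with a single transcript of 50 to 75 bases were above 0 in any library, against 55 of 719 (7.65%) at 76 to 100 bases. The shortest such row above 0 had 76 bases. The steps between low FPKM values fitted whole reads with 75 bases taken off each transcript's length, at which no tRNA here has any length left. The zeros are therefore no measure of tRNA levels.

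The nuclear genes that copy, process and translate mitochondrial RNA showed no change past the threshold. Of 188 tested, 0 passed in limma, and 1 in each direction had an unadjusted p below 0.05, beside 448 of all 12770 genes (3.51%). Among 22 genes for transcription and replication of mitochondrial DNA, 10 estimates were positive and 12 negative, with a median of -0.01. Tfb2m, the factor that opens mitochondrial promoters, had 20.1, 19.5 and 20.2 FPKM in KO, against 24.6, 22.0 and 23.3 FPKM in Ctr. Its groups did not overlap, as for 600 of the 12770 genes with all KO values below all Ctr values (4.7%), and its log2 change was -0.21 (SE 0.07; unadjusted p = 0.0225, limma adjusted p = 0.999617). Tefm, the elongation factor of the mitochondrial polymerase, had a change of -0.14 (SE 0.09), Mterf3, a regulator of mitochondrial transcription and ribosome assembly, 0.11 (SE 0.09), and Top1mt, the mitochondrial topoisomerase, -0.20 (SE 0.16).

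Of 49 genes for RNA processing, modification and decay, 18 estimates were positive and 31 negative, with a median of -0.02. Endog, the mitochondrial endonuclease G, had 26.7, 23.7 and 24.3 FPKM in KO, against 20.7, 22.4 and 22.0 FPKM in Ctr, a log2 change of 0.19 (SE 0.08; unadjusted p = 0.0479, limma adjusted p = 0.999617). Fastk, whose mitochondrial isoform is known to act on mt-Nd6 mRNA, had 67.5, 74.3 and 67.6 FPKM in KO, against 63.4, 62.6 and 61.7 FPKM in Ctr, a log2 change of 0.15 (SE 0.07; unadjusted p = 0.0573). Neither gene's groups overlapped, as for 497 of the 12770 genes with all KO values above all Ctr values (3.89%). Supv3l1, the helicase of the mitochondrial RNA degradosome, had a change of 0.18 (SE 0.09), and Mettl17, a factor of small-subunit assembly, -0.32 (SE 0.14).

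The proteins of the mitochondrial ribosome, which bind the 2 rRNAs, had 50 positive and 28 negative estimates of 78, with a median log2 change of 0.04. That balance was not stable: positive estimates were 35 of 78 with an equal sum over all rows, 36 without KO 1 and 38 without KO 1 and Ctr 1. Those with the smallest p were Mrps25 at 0.20 (SE 0.09), Mrps11 at 0.18 (SE 0.09), Mrpl33 at 0.16 (SE 0.08) and Mrps16 at 0.20 (SE 0.11). Of 18 aminoacyl-tRNA synthetases, which charge the mitochondrial tRNAs, 2 estimates were positive and 16 negative, with a median of -0.07. Without Ctr 3, 7 were positive (median -0.035), and without KO 1 it was 5 (median -0.096). Yars2, Tars2, Iars2 and Rars2 lay between -0.18 and -0.11. The 21 translation factors divided 9 to 12 with a median of -0.02, where Mtrf1l, a release factor, Mrrf, the ribosome recycling factor, and Gatc, of the glutamyl-tRNA amidotransferase, were at -0.19, -0.16 and -0.14, and Dap3, a small-subunit protein, at 0.08. The 20 regulators of mitochondrial biogenesis divided 11 to 9 with a median of 0.02, and their smallest unadjusted p was 0.172, for Prkaa1, a catalytic subunit of AMP-activated kinase. The other named ones were Ppargc1b at -0.18, Ppara at 0.15 and Pprc1 at 0.15. No p-value here passed the adjustment.

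The nuclear genes for the same respiratory complexes had 66 positive and 6 negative estimates of 72, with a median log2 change of 0.08 and 0 past the threshold. With an equal sum over all rows 50 were positive (median 0.033), without KO 1 it was 54 (median 0.033), and without KO 1 and Ctr 1 it was 50 (median 0.026). Atp5g1, a membrane subunit of the ATP synthase, had 520, 465 and 431 FPKM in KO, against 405, 412 and 407 FPKM in Ctr (log2 change 0.21, SE 0.08; limma adjusted p = 0.999617).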

How the data were processed

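The authors deposited 1 table of FPKM values with 2 decimals, fragments per kilobase of transcript and per unit of depth, for 3 KO and 3 Ctr libraries, with no read counts. The RNA kit was column-based and the library kit directional, per the labels' protocols. The submitters' processing notes name RSEM, STAR 2.6.0c and DESeq2 1.28.1 without roles. Not given in the sources used here are the genome build, the annotation, the mRNA enrichment and the use of strand. Because FPKM divides by the depth of the library, abundant genes that change shift every other gene.

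Gene identifiers were matched to GENCODE M21 (GRCm38; 52147 of 52405, 99.51%), which gave coordinates and sequences. Genes with a mean of at least 1 FPKM (12770) were tested with limma 3.58.1 (R 4.3.3, trend) on log2(FPKM + 1), with two-sided p-values adjusted by Benjamini-Hochberg over all of them and a threshold of 0.05; the method was tested on simulated data. Fold changes on this scale understate those of low genes. Shares and ratios were tested with exact two-sided permutation tests. Nuclear copies were found with BLAST 2.17.0. From the steps between low FPKM values, 65.2% to 70.2% of which were whole reads within 0.05 (10% if spread evenly; 18.5% to 22.0% at a depth 0.5 times as large), depth was estimated at 25500000, 21800000 and 19700000 reads in KO and 21900000, 22600000 and 23000000 reads in Ctr. The member with the fewest reads, mt-Nd4l, then had 11400 to 16300, a counting error of 0.78% to 0.94% that covers counting only.

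Named were all mitochondrial mRNAs and rRNAs, nuclear copies averaging 1 FPKM or more, up to 4 genes per nuclear list with the smallest p, and Igf1r. The members and lists were chosen with earlier results of these data known. Some cell type markers are not reported here. Deviations from the group means of libraries with the same number correlated at 0.63, 0.29 and 0.37 across genes, all above 0.1. The main tests were unpaired, and the numbers were treated as pairs only in the alternatives with a replicate block. No label states such a pairing, and KO 2 correlated as closely with Ctr 3 (0.30) as with Ctr 2. Alternatives were the pseudocount, the filter, the scaling, the replicate block, each library left out, KO 1 and Ctr 1 left out together and, added after the data were seen, nuclear copies added to their gene, scaling without mitochondrial rows and copies, shares of reads, and the ratios of neighbouring genes and shares of complexes. The p-values measure the spread between these libraries, which may be partly technical.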

Additional observations from a re-analysis of the deposited data

How the results depend on the processing

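No mitochondrially encoded gene and no nuclear gene for mitochondrial gene expression passed the threshold under any of the 16 alternatives to the limma fit. In the paired limma fit, with a replicate block, 0 of 15 members passed, and mt-Rnr2 had an adjusted p of 0.643 and mt-Rnr1 of 0.878. The exact sign-flip p of each share and ratio cannot go below 0.25. The block changed no call among the members or these nuclear genes, while over all genes 4 were called in place of 3. Over all alternatives the adjusted p of mt-Rnr2 ran from 0.542 to 0.9999. Without 1 library, the count of mRNAs with a positive estimate ran from 8 to 13, the lowest without Ctr 3. Of the log2 changes, mt-Nd3 turned to -0.011 with an equal sum over all rows. Leave-one-out ranges that crossed 0 were -0.028 to 0.21 for mt-Nd1, -0.010 to 0.19 for mt-Atp6, -0.024 to 0.084 for mt-Nd3, -0.016 to 0.21 for mt-Nd5 and -0.061 to 0.17 for mt-Nd6. The mt-Atp8 to mt-Atp6 ratio difference ran from -0.173 to 0.192, and was -0.334 without KO 1 and Ctr 1. The shares of single mRNAs and of complexes that crossed 0 ran, in percentage points, from -0.630 to 0.227 for mt-Nd1, -0.596 to 0.149 for mt-Atp8, -0.319 to 0.159 for mt-Atp6, -0.266 to 0.484 for mt-Co3, -0.0238 to 0.112 for mt-Nd4l, -0.277 to 0.197 for mt-Nd4, -0.152 to 0.0824 for mt-Nd5, -0.162 to 0.262 for mt-Cytb and for complex III, which it makes up alone, and -0.498 to 0.103 for complex V. With the copies added, the shares of mt-Atp8, mt-Co3 and mt-Nd5 turned to 0.0736, -0.334 and 0.0202. Without KO 1 and Ctr 1, those of mt-Atp6, mt-Nd4 and mt-Nd5 turned to 0.337, 0.00830 and 0.000578. None of these differences passed a test in either direction, and the cause was not tested. The rRNA share difference stayed positive throughout, from 0.209 to 0.328 percentage points without 1 library. With 3 libraries a group, shifts in shares can reach no exact p below 0.1, and depth is not the limit at about 11400 reads or more a member.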
